A study of Drosophila melanogaster with 16 samples.

Results

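The Imd and Toll pathways are the main NF-κB signalling routes of Drosophila immunity, and 8 of their regulators were followed here at the level of RNA. They are PGRP-LC (FBgn0035976), imd (FBgn0013983), key (FBgn0041205), Rel (FBgn0014018), PGRP-LB (FBgn0037906) and pirk (FBgn0034647) of the Imd pathway and Dif (FBgn0011274) and cact (FBgn0000250) of the Toll pathway. The genes were chosen by identifier, and all 8 are among the 15050 FlyBase gene identifiers in the RNA-seq tables. S2 cells are a cultured line from late-stage embryos that the sample records describe as macrophage-like. Poly(A)+ RNA was sequenced from 2 control cultures, treated with double-stranded RNA against bacterial lacZ, and from 2 Lam-KD cultures, in which the double-stranded RNA was directed at lamin Dm0. The treatment lasted 5 days according to the sample records, whereas the methods of the study give a shorter time. The cultures share the line, the medium and exposure to double-stranded RNA, and no bacterial elicitor is named for any of them, so the values describe the pathways without a stated immune challenge.

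The Imd pathway answers to peptidoglycan of the kind found in Gram-negative bacteria. A membrane receptor passes the signal through an adaptor protein to a kinase complex, and the NF-κB factor Relish is then cleaved and enters the nucleus. In the Toll pathway the inhibitor Cactus is degraded and releases the NF-κB factors Dif and Dorsal. Both routes end in the transcription of antimicrobial peptide genes, and both also switch on some of their own inhibitors. S2 cells are widely used to study the Imd pathway because they respond to peptidoglycan. RNA levels do not show cleavage, degradation or nuclear entry of these proteins, which are the steps at which the pathways are switched on.

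The libraries sum to between 14727743 and 16607051 estimated counts. In every library fewer rows hold a value of 1 (113 to 137 rows) than a value of 2 (306 to 375 rows) or 3 (328 to 417 rows), so a unit is not a single read. Levels are given as CPM, estimated counts per 1000000, after TMM scaling, which corrects each library for its depth and composition. They are compared between libraries for 1 gene at a time and not between genes, because transcript lengths were not at hand. Lam-KD was compared with control by the quasi-likelihood test of edgeR, with p-values adjusted over all 8299 features that passed the filter on low counts. The identifier of the lamin Dm0 gene is not paired with a symbol in the tables used, so the depletion itself was not read from these libraries. The study compared lamin Dm0 protein between Lam-KD and control S2 cells by Western blot. Hemocyte markers had no paired identifier either, and the macrophage-like label was not checked.

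No regulator that could be tested passed an adjusted p under 0.05, and PGRP-LB did not pass the filter on low counts. In edgeR 0 of the 7 that could be tested were called, beside 0.0361% of all features tested (3 of 8299). The adjusted p-values of the 7 ranged from 0.507 to 0.891. At an unadjusted p under 0.05 there were 2 regulators, pirk and Rel, both higher upon Lam-KD, beside 9.58% of all features in either direction and 5.06% in that direction. The count over all features depends on the tool and the libraries, since DESeq2 called 42 (0.506%) and edgeR called 797 (9.36%) without control replicate 1, 61 (0.715%) without control replicate 2, 22 (0.258%) without Lam-KD replicate 1 and 14 (0.166%) without Lam-KD replicate 2. The count of regulators called was 0 in each of these. The count of regulators at an unadjusted p under 0.05 was 3 without control replicate 1, beside 26.4% of all features, and 2 without control replicate 2, beside 17.4%. It was 1 without Lam-KD replicate 1, beside 3.76%, and 0 without Lam-KD replicate 2, beside 2.9%. The third regulator without control replicate 1 was PGRP-LC, which was lower, at an edgeR p of 0.0105 before adjustment. In cultures sequenced as a whole, a change in the RNA of each cell and a change in the share of cells that express a gene cannot be told apart.

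**Figure D1:**
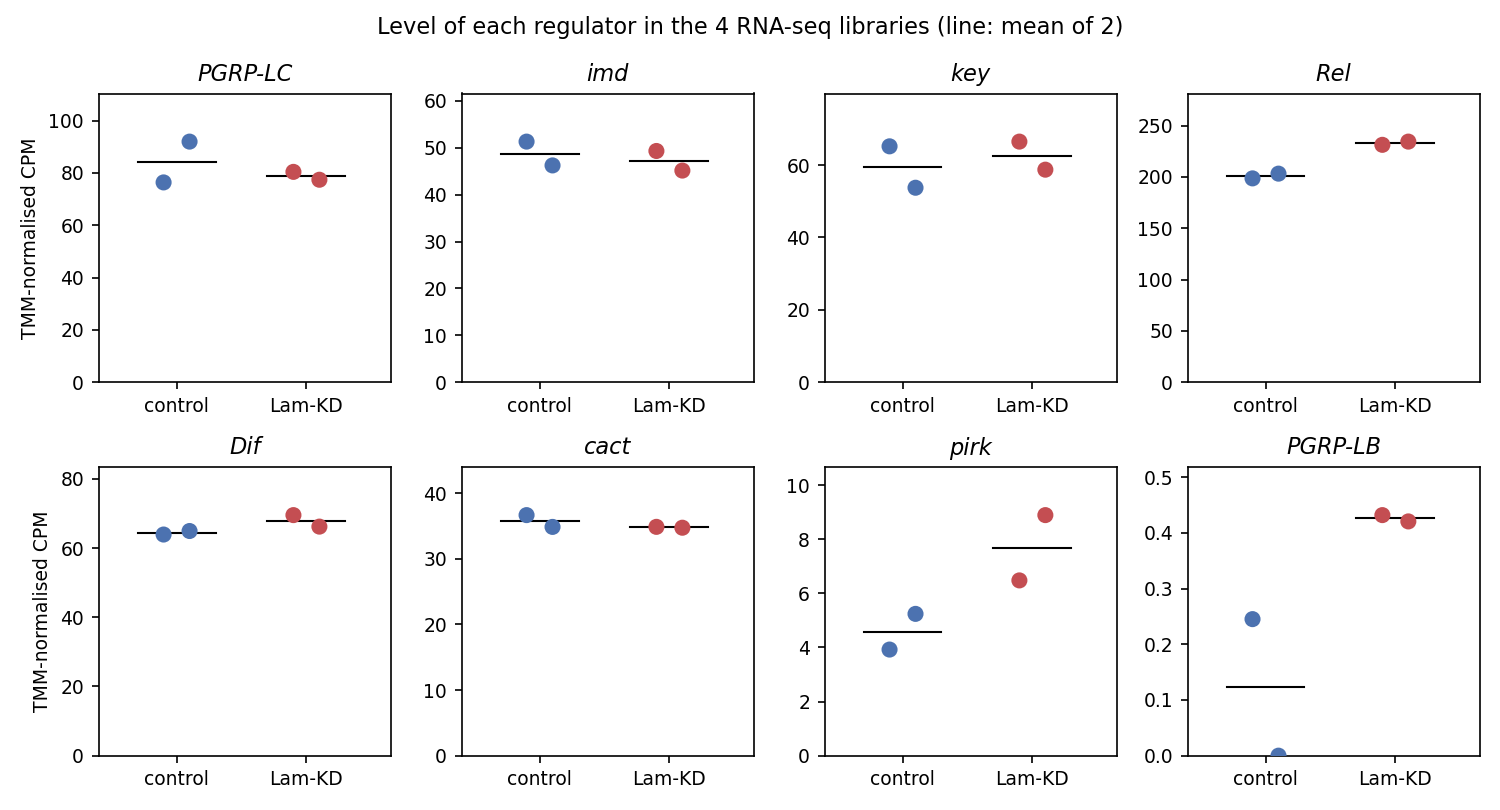
TMM-normalised CPM (y axis, from 0, a separate scale for each gene) of the 8 regulators in 2 control (blue) and 2 Lam-KD (red) libraries, with a line at the mean of each condition. For Rel, pirk and Dif both Lam-KD points lie above both control points, for PGRP-LC, imd, key and cact the conditions overlap, and PGRP-LB stays below 0.5 CPM in all 4 libraries.

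PGRP-LC encodes the membrane receptor that senses peptidoglycan at the start of the Imd pathway. Control cells had 1246 and 1351 counts of it and Lam-KD cells 1303 and 1288, that is 76.4 and 92.0 CPM against 80.4 and 77.4 CPM. The highest and the lowest of these levels were both control libraries, which differed by 0.27 on the log2 scale, more than the Lam-KD libraries did (0.055). The log2(FC) was -0.09 with a standard error of 0.11 (edgeR, adjusted p = 0.765). Its 95% interval runs from 0.782-fold to 1.13-fold.

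The adaptor of the pathway, a death-domain protein, is encoded by imd. Its level was 51.3 and 46.2 CPM in control cells and 49.3 and 45.1 CPM in Lam-KD cells. Replicate 1 was the higher library in either condition, and the conditions overlapped. The log2(FC) was -0.05 (standard error 0.10, edgeR adjusted p = 0.884), with an interval from 0.813-fold to 1.15-fold.

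The gene key encodes the regulatory subunit (IKKγ) of the IκB kinase complex that acts on Relish. It was measured at 65.2 and 53.7 CPM in control cells and at 66.5 and 58.7 CPM upon Lam-KD. The control replicates differed by 0.28 and the Lam-KD replicates by 0.18 on the log2 scale, both more than the log2(FC) of 0.074 (standard error 0.12, edgeR adjusted p = 0.842). The interval runs from 0.855-fold to 1.30-fold.

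Rel encodes Relish, the NF-κB factor at the end of the Imd pathway, which carries its own inhibitory domain until it is cleaved. The gene had the highest counts among the 8, with 3239 and 2984 in control cells and 3747 and 3900 upon Lam-KD. These correspond to 199 and 203 CPM against 231 and 234 CPM. Both Lam-KD libraries lay above both control libraries, and the replicates differed by only 0.033 and 0.019 on the log2 scale. Pairing each Lam-KD library with each control library, in 4 ways, gave a log2 ratio of 0.19 to 0.24. The log2(FC) was 0.21 with a standard error of 0.076, a fold of 1.16 with a 95% interval from 1.02 to 1.32. The unadjusted p was 0.0294 and the edgeR adjusted p was 0.507, so the difference does not pass the test across all genes. With 1 library left out, the log2(FC) stayed between 0.19 and 0.23. The unadjusted edgeR p rose without either Lam-KD library and fell without either control library. Of the features tested, 15.4% had a log2(FC) at least as high and 5.81% had a p at least as low, and 2.70% had a standard error at least as small.

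**Figure D2:**
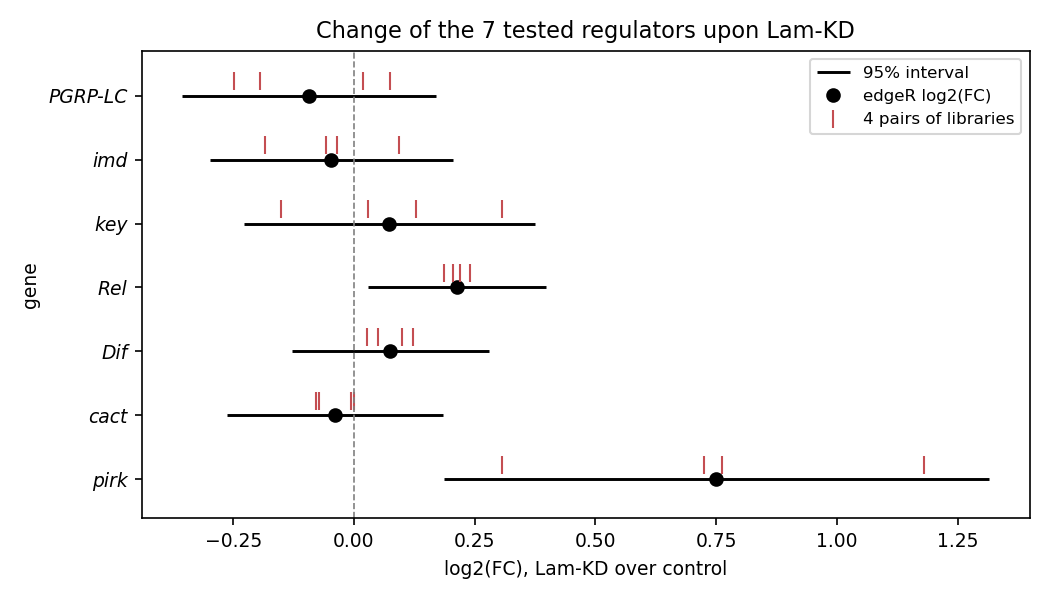
log2(FC) of Lam-KD over control from edgeR (black point) with its 95% interval (line) for the 7 tested regulators, and the 4 log2 ratios between a library of either condition (red ticks). The intervals of Rel, from 0.029 to 0.40, and of pirk, from 0.19 to 1.32, lie above 0, and the other 5 include 0.

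The inhibitors of the Imd pathway were the regulators with the fewest counts. The product of pirk binds PGRP-LC and Imd and dampens the signal, and the gene is itself induced by the pathway. Its counts were 64 and 77 in control cells and 105 and 148 upon Lam-KD. On the CPM scale the control libraries were at 3.92 and 5.24 and the Lam-KD libraries at 6.48 and 8.89, with no overlap. The log2(FC) was 0.75 with a standard error of 0.23, a fold of 1.68 with a 95% interval from 1.14 to 2.49. Its unadjusted p of 0.0169 was the lowest among the regulators, at rank 257 of 8299, while the edgeR adjusted p was 0.507. The replicates differed by 0.42 in control and by 0.46 in Lam-KD cells on the log2 scale, and the 4 ratios between conditions ranged from 0.31 to 1.18. The lowest of these was thus smaller than the distance between replicates. A log2(FC) at least as high as that of pirk was found for 2.22% of the features tested.

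PGRP-LB encodes an amidase that cleaves peptidoglycan and so removes the elicitor of the pathway. It was nearly silent, with 4 and 0 counts in control cells and 7 and 7 counts in Lam-KD cells. These are 0.245 and 0 CPM against 0.432 and 0.421 CPM. If a count were a read, the 0 in control replicate 2 would allow up to 3 counts, 0.204 CPM of its unscaled total, for counting error only. Since a unit is not a single read, the true limit is higher and is not known. The gene did not pass the filter on low counts and was not tested with the others. On the 10090 features above 0 in at least 2 libraries, its log2(FC) was 1.67 with a 95% interval from -0.84 to 4.31 (edgeR, adjusted p = 0.611). A difference in PGRP-LB was thus not detected, and the interval leaves wide room for one in either direction.

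Dif encodes an NF-κB factor of the Toll pathway that acts in the immune response. Its level was 63.9 and 65.0 CPM in control cells and 69.6 and 66.2 CPM in Lam-KD cells. The conditions did not overlap, but the lowest of the 4 log2 ratios between them was 0.028 and the Lam-KD replicates differed by 0.071. The log2(FC) was 0.075 (standard error 0.084, edgeR adjusted p = 0.753), and the interval runs from 0.915-fold to 1.21-fold.

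The IκB protein Cactus, which holds Dif and Dorsal in the cytoplasm, is encoded by cact. Its level was close in all 4 libraries, with 36.7 and 34.9 CPM in control cells and 34.9 and 34.7 CPM upon Lam-KD. Control replicate 2 and Lam-KD replicate 1 had the same level to 3 digits. The log2(FC) was -0.04 (standard error 0.093, edgeR adjusted p = 0.891), with an interval from 0.833-fold to 1.14-fold.

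Across the regulators, 3 of the 7 tested (Rel, pirk and Dif) had both Lam-KD libraries above both control libraries, and 0 had both below (PGRP-LB, not tested, was also separated upwards, at 0 to 7 counts). Among all features tested, 22.8% were separated in the first way and 21.8% in the other. The median log2(FC) of the 7 was 0.074 and that of all features was 0.0074. Without regard to sign the medians were 0.075 and 0.12, with pirk and Rel above the latter and the other 5 below it. These medians were not tested against each other. The activating components PGRP-LC, imd, key, Rel and Dif ranged from -0.09 to 0.21. The inhibitors pirk and cact stood at 0.75 and -0.04.

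**Figure D3:**
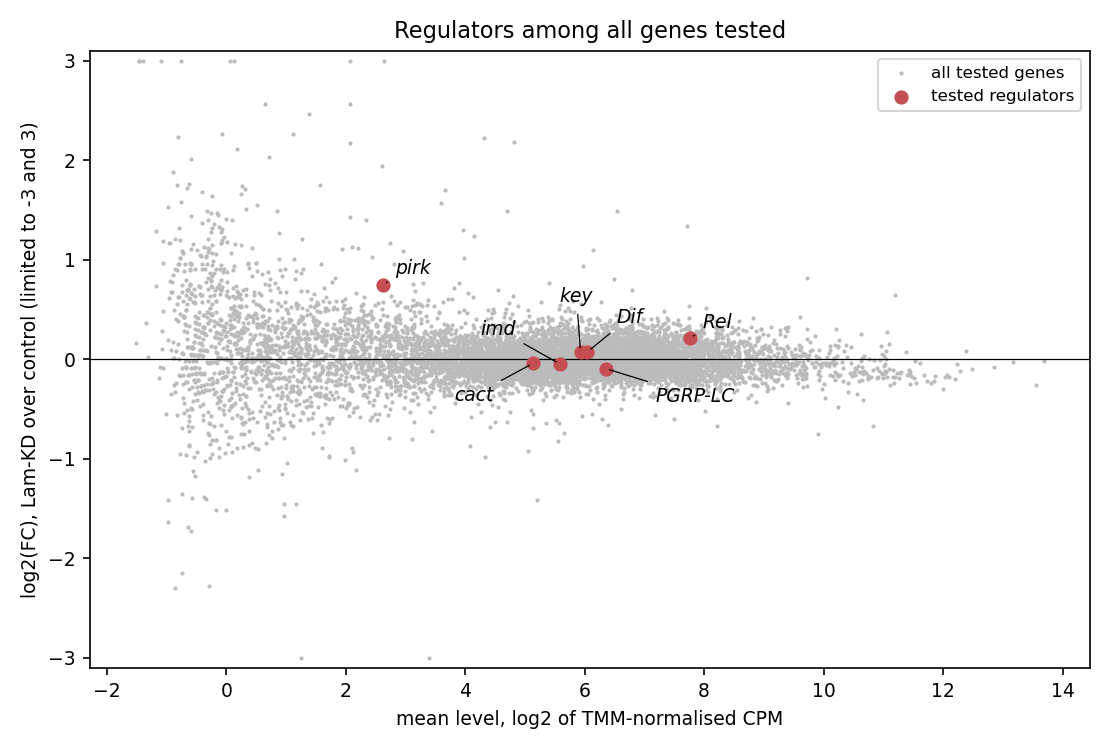
log2(FC) of Lam-KD over control (y axis, limited to -3 and 3) against the mean level (x axis, log2 of TMM-normalised CPM) for the 8299 features tested (grey) and the 7 tested regulators (red). Of the 7, pirk at 0.75 and Rel at 0.21 lie highest, and the other 5 lie between -0.09 and 0.075.

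Ratios of an inhibitor or subunit to its partner were formed within each library, where depth and scaling cancel. Of 5 ratios 4 could be tested, and with 2 libraries per condition an exact permutation test cannot go below a p of 0.333. The ratio of pirk to imd counts was 0.0765 and 0.113 in control cells and 0.131 and 0.197 in Lam-KD cells, a difference of 0.79 on the log2 scale (two-sided exact permutation test, p = 0.333, adjusted p = 0.444 over 4 ratios). That of pirk to PGRP-LC was 0.0514 and 0.0570 against 0.0806 and 0.115, a difference of 0.83 with the same p. Both ratios share the counts of pirk and are not independent of each other. The difference for pirk to imd was 0.50 without control replicate 1 or without Lam-KD replicate 2, and 1.07 or 1.08 without either of the other libraries. For pirk to PGRP-LC it ranged from 0.57 to 1.09 with 1 library left out.

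For the Toll pair, the ratio of cact to Dif counts was 0.573 and 0.537 in control cells and 0.501 and 0.525 upon Lam-KD. It was lower in both Lam-KD libraries, by -0.11 on the log2 scale, again with p = 0.333 in the exact permutation test. The distance between the lower control and the higher Lam-KD library was smaller than that between the control replicates, and the difference was -0.066 without control replicate 1. The ratio of key to Rel was 0.328 and 0.264 in control cells and 0.287 and 0.251 upon Lam-KD, and the conditions overlapped (exact permutation p = 0.667). Its log2 difference was -0.13, and 0.021 without control replicate 1. PGRP-LB to PGRP-LC, with 0 counts of PGRP-LB in 1 control library, stayed below 0.006 in all 4 libraries and was not tested.

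**Figure D4:**
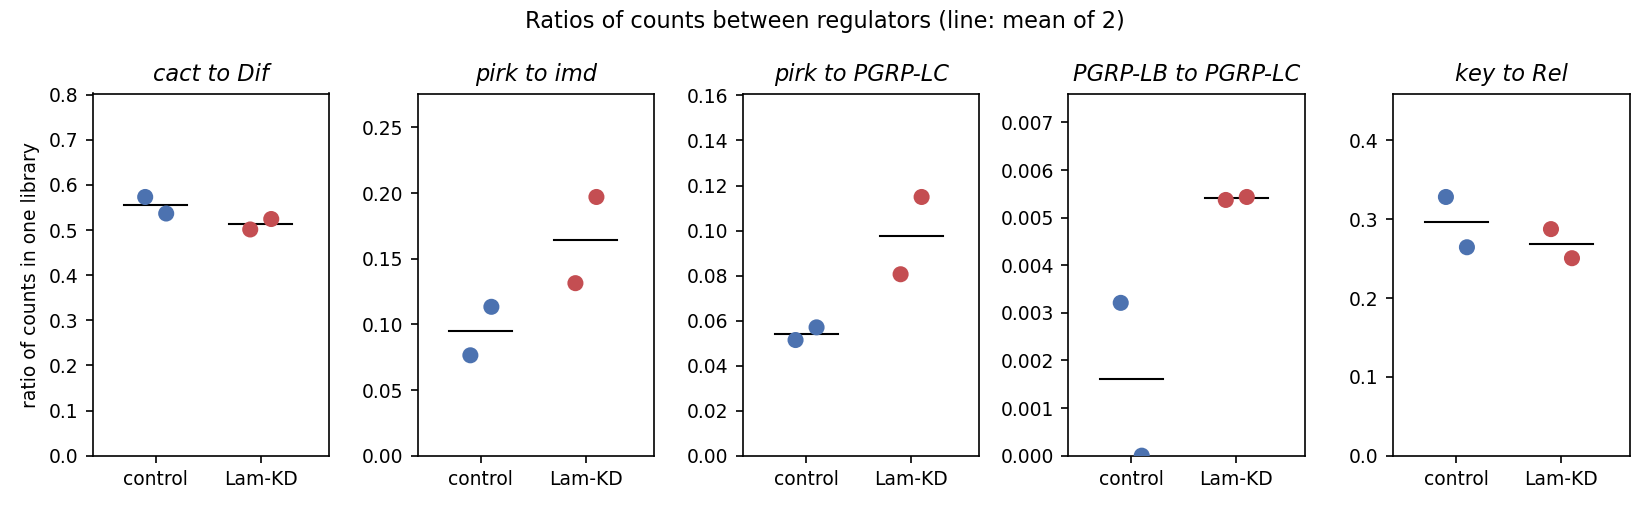
Ratios of estimated counts of 2 regulators in the same library (y axis, from 0, a separate scale for each pair) in control (blue) and Lam-KD (red) cells, with a line at the mean of each condition. Both Lam-KD points lie above both control points for pirk to imd, pirk to PGRP-LC and PGRP-LB to PGRP-LC and below them for cact to Dif. With 2 libraries per condition, even full separation gives an exact permutation p of 0.333. The pirk ratios share the counts of pirk, and PGRP-LB had only 0 to 7 counts.

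Neighbouring genes can share reads with some of the regulators. In the RefSeq annotation of Release 6, a later genome build than the dm3 used for the counts, the gene span of Rel overlaps that of Nmdmc, imd that of GstE9 and Dp1, key that of CG3589, cact that of fzy, PGRP-LB that of CG17230, and Dif that of CG15141 and a long non-coding RNA gene. PGRP-LC and pirk overlap no other gene there. PGRP-LC lies between its relatives PGRP-LA and PGRP-LF on chromosome arm 3L. Whether counting used the strand is not given in the sources used here, so reads of overlapping genes may be counted with imd, key, Rel, PGRP-LB, Dif or cact. The levels of these neighbours were not read, because their identifiers are not paired with symbols in the tables used.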

How the data were processed

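RNA-seq libraries of 2 control and 2 Lam-KD cultures were used, which the study calls biological replicates. The authors mapped reads to dm3 with HISAT2 2.1.0, removed reads of low mapping quality with SAMtools, quantified genes with StringTie and deposited an estimated count per gene, a whole number not scaled to depth. These sums exceed the number of reads that the study states, so the counts were also tested after division by 2. Rows without a gene identifier hold at most 0.0329% of a library and were kept.

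Conditions were compared with edgeR 4.0.16 (TMM, filterByExpr, quasi-likelihood test, Benjamini-Hochberg adjusted p under 0.05) in R 4.3.3. Standard errors and 95% intervals were derived from the F statistic. The edgeR fit was also run on simulated counts, with the same spread between libraries set for every gene and changes only above a count threshold. That run does not test the intervals at the spread of the real data, whose values are not single reads. DESeq2 1.42.0, other scalings and filters, edgeR's exact test, a replicate block and leaving out each library were tried. Replicate numbers are only numbers, and libraries were not paired. Ratios of counts were tested with exact permutation (scipy 1.17.1).

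All 8 members were named, and they and the gene lists were chosen with earlier results of these data known. Of 81 other pathway and marker genes listed, 0 could be matched to an identifier, since 137 of 15050 identifiers are paired with a symbol. These lists, levels per transcript length, and ChIP-seq and Hi-C at the genes (no gene positions on dm3) were not analysed here. Tables and plots used Python 3.11.15, numpy 2.4.6, pandas 2.3.3 and matplotlib 3.10.9.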

Additional observations from a re-analysis of the deposited data

How the results depend on the processing

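The number of regulators called was 0 in all 11 alternatives, and the lowest adjusted p of any of them was 0.0762, for PGRP-LC without control replicate 1. The number of features called was 3 and depended on the processing. It was 7 with library sums only and 42 in DESeq2. With the filter of the study but the quasi-likelihood test it was 0 (945 at an unadjusted p under 0.05). That 0 is not the result of the study, which reports genes changed in both directions from edgeR. The study does not name the edgeR test it used. In settings chosen after seeing the data, 70 were called in edgeR's exact test, run with filterByExpr, and 5 with counts halved. A replicate block gave 59, with pirk at an adjusted p of 0.13 and Rel at 0.355. The deviations of replicate 1 from the group means correlated weakly between conditions across genes (r = 0.0786), and the samples share only a number. With 1 library left out, in edgeR with the lone library assumed to vary like the others, the features called ranged from 14 to 797. The log2(FC) then ranged from 0.19 to 0.23 for Rel, from 0.50 to 0.97 for pirk, from 0.037 to 0.11 for Dif and from -0.076 to -0.012 for cact, and it changed sign for imd (-0.12 to 0.021), key (-0.060 to 0.21) and PGRP-LC (-0.23 to 0.046). The unadjusted p of Rel then ranged from 0.00541 to 0.257 and that of pirk from 0.00529 to 0.128. The log2 difference of the ratios ranged from 0.50 to 1.08 for pirk to imd, from 0.57 to 1.09 for pirk to PGRP-LC and from -0.16 to -0.066 for cact to Dif, and it changed sign for key to Rel (-0.29 to 0.021). The cause of these reversals was not tested. In the other 7 alternatives each of the 7 regulators kept its sign. H3 pan-acetylation at the genes was not run, because no gene positions on dm3 were at hand. With estimated counts that are not single reads, intervals may be too narrow for pirk and PGRP-LB.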
